A study of Mus musculus with 3 samples.

Results

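The posterior frontal suture is the midline seam between the frontal bones of the mouse skull, and it lies over the meninges and the brain. Transcripts of neural tissue and its coverings were followed in this suture with 8 genes that mark neurons (Stmn2, Stmn4, Tubb3, Nefl), glia and nerve sheaths (Gfap, Mbp, Sox10) and the leptomeninges (Ptgds). The members were all array rows that carry these gene names and are not control spots, which gave 13 probes, of 55680 probes and 35019 genes on the array. RNA came from C57BL/6 mice in 3 groups, Runx2+/+ (wild type) at postnatal day 5 (P5), Runx2+/+ at P7 and Runx2+/- at P7, with 1 Agilent one-colour array each. Runx2 is the master transcription factor of the osteoblast lineage, and heterozygotes keep a single functional copy. The number of animals behind an array is not in the labels, nor is what the Runx2 allele lacks, nor whether dura mater stayed on the bone. With 1 array in each group there is no replicate, so every difference is between hybridised samples and has no p-value.

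Growing axons are filled with microtubules. Stmn2 and Stmn4 are neuronal members of the stathmin family, which bind tubulin dimers, and Tubb3 is the beta tubulin used largely by neurons. Nefl is the light subunit of neurofilaments, which accumulate in large axons. Sox10 is a transcription factor of neural crest derivatives that is needed by Schwann cells, oligodendrocytes and melanocytes, Mbp is a main protein of myelin, and Gfap is the intermediate filament of astrocytes and of some Schwann cells. Ptgds makes prostaglandin D2 in the leptomeninges and choroid plexus and is abundant in cerebrospinal fluid. The calvaria receives peripheral nerves, so axons and Schwann cells can be native to a suture sample, whereas astrocytes and oligodendrocytes belong to the brain.

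A probe reports only the stretch of transcript it is complementary to, and for 4 of the 13 member probes that stretch holds a polyadenylation hexamer. The last 30 bases of these probes are shown because they place the probes of the genes measured on every array at the ends of their transcripts. The hexamer AATAAA is in capitals. It was searched on the transcript strand only, and 8.16% of all 55681 probe sequences of 60 bases hold it in their last 30 bases.
Stmn2: gatgAATAAAgaattggagttctgtgaact
Tubb3: acttAATAAAgttactgctgtctgtcagat
Sox10: tccagcgataccttAATAAAgtacgtagct
Ptgds: tgacaaagaAATAAAagtccaaagcaagtc
On mm9, the build of the files, these stretches lie at chr3:8561575-8561604 (plus strand), chr8:125945880-125945909 (plus strand), chr15:78985518-78985547 (minus strand) and chr2:25322232-25322261 (minus strand). The Stmn4 probes (chr14:66980426-66980485 and chr14:66980442-66980501, plus strand) share 44 of their 60 bases, so they read the same site and are not independent measurements. The shared part opens with 30 bases that both probes hold.
Stmn4: cgggtgggataaggtctgtgtgcgtctgtt

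The arrays differed in brightness, which sets what can be compared. At P5, 40.08% of all probes were well above background, at P7 29.2% were in wild type and 47.33% in Runx2+/-. The 75th percentile of signal was 52.1, 22.8 and 124.3 intensity units in the same order. Levels are therefore given as log2 units above the array's own 75th percentile. A gene that was well above background on a single array of a pair gives a lower bound on the fold, and only if that array was the higher. From probes spotted at least 5 times, the technical SD of a log2 difference was 0.25 for P7 against P5 wild type and 0.22 for Runx2+/- against wild type at P7. It was 0.37 and 0.33 for the dimmest of 3 equal groups of these probes. Within transcripts that had several probes at least 200 bases apart, the difference rose towards the 3′ end by a median of 0.18 log2 units per kb for age (1082 transcripts), 0.14 for genotype (1088) and 0.35 for Runx2+/- at P7 against P5 wild type (1848). The part of this slope in the differences below was not tested. The osteoblast markers that define the tissue were well above background on all 3 arrays for 10 of 10 genes. Runx2 itself was 0.38 lower in Runx2+/- at P7 than in wild type.

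Of the 8 genes, 7 were well above background at P5, while at P7 the wild type had 4 and Runx2+/- had 6. Stmn2, Tubb3, Sox10 and Ptgds were measured on every array, while Nefl was measured on none.

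**Figure D1:**
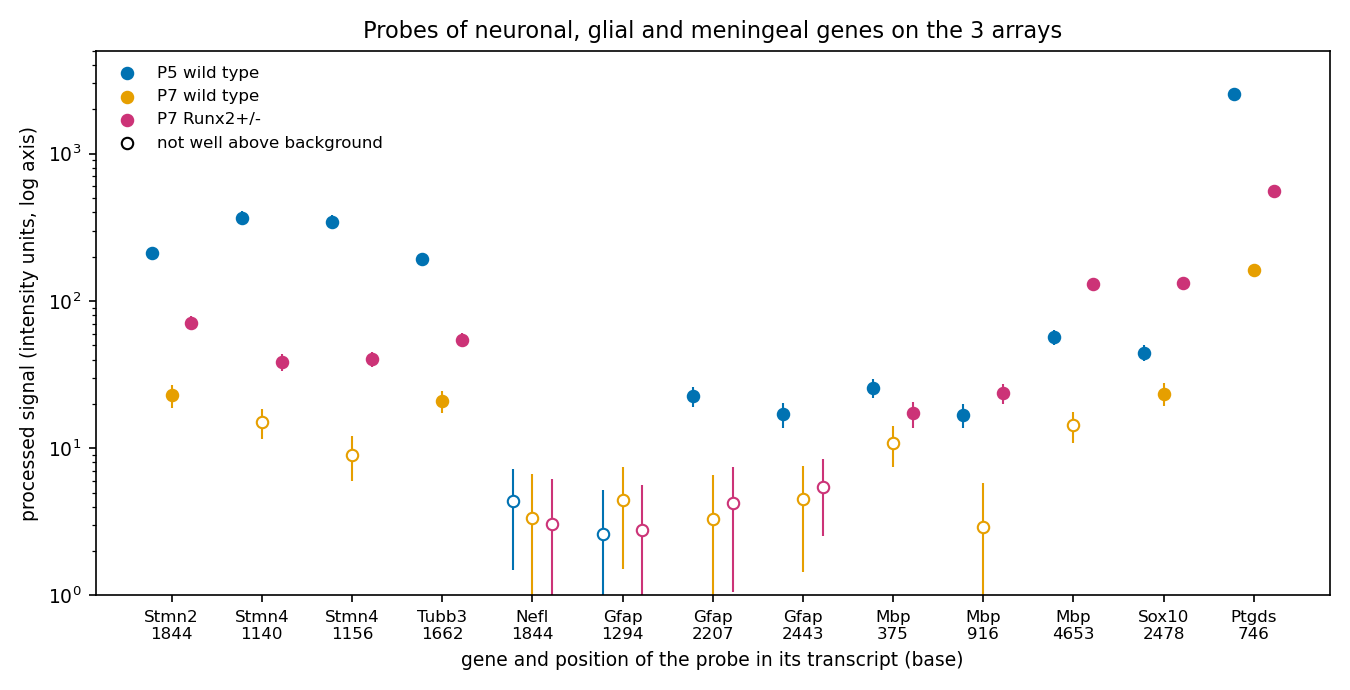
Processed signal of the 13 probes on the 3 arrays, in intensity units on a log axis, before scaling between arrays. Points are single arrays, bars are the scanner software's error of a spot (cut at the axis where they reach below 1), and open points were not well above background; the stathmin, Tubb3 and Ptgds probes were highest on the P5 wild-type array, from 193 to 2524 units, and the Mbp probe at base 4653 and the Sox10 probe were highest on the Runx2+/- array, at 130.0 and 131 units.

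The first comparison asked how the wild-type suture differed between P5 and P7. The neuronal cytoskeleton genes Stmn2, Stmn4 and Tubb3 and the meningeal gene Ptgds were at least 4-fold lower at P7, whereas Sox10 was within 1.3-fold of its P5 level. Of the 8 genes, 6 could be ordered between these arrays, of which 4 were lower by 2-fold or more and 0 higher by as much. Over all genes with an order, 3.29% lay 2-fold or more below P5 and 6.35% lay 2-fold or more above. After normexp background correction scaled to the 75th percentile those shares were 6.78% and 0.232%, with 4 members still lower. The median of the 6 was -2.01, against 0.03 over all 14341 ordered genes. Genes bright at P5 were the ones that could be ordered as lower, so this count describes those 6 genes and not all 8.

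Stmn2 gave 211 ± 21.3 intensity units at P5, 22.9 ± 4.02 at P7 in the wild type and 70.8 ± 7.75 in Runx2+/-, where ± is the scanner software's error of the spot. On the scaled log2 axis these levels were 2.02, 0.01 and -0.81. The P7 wild-type level was 2.01 below the P5 level, a 4.03-fold difference, and the P5 array stood apart from both P7 arrays.

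Tubb3 had almost the same profile. Its signals were 193 ± 19.4, 21.0 ± 3.50 and 54.5 ± 6.06 intensity units in that order of groups. The scaled levels were 1.89, -0.12 and -1.19, and the P7 wild-type level was 4.02-fold below the P5 level. Stmn2 and Tubb3 lie on different chromosomes, and among the 12824 genes measured on all 3 arrays Tubb3 was the gene nearest to Stmn2 in its differences for age and genotype together, at a Euclidean distance of 0.25. The next nearest named genes were Bcan, which encodes the brain matrix proteoglycan brevican, at 0.30, and Plcb1 at 0.46. The nearest named genes to Tubb3 after Stmn2 were Bcan at 0.25, Aldoc at 0.60 and Srsf2 at 0.63. These distances rest on 3 arrays only.

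Stmn4 was bright at P5 and not well above background at P7 in the wild type. Its brighter probe gave 368 ± 36.9, 15.0 ± 3.54 and 38.6 ± 4.93 intensity units, and the overlapping probe gave 346 ± 34.7, 9.0 ± 3.02 and 40.3 ± 4.89. The P7 wild-type level was at least 10.72-fold below the P5 level with the brighter probe and at least 11.4-fold below with the other.

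Nefl did not rise clear of background in any sample, at 4.36, 3.36 and 3.07 intensity units with its 1 probe (chr14:68705638-68705698, plus strand). The other neurofilament genes Nefm and Nefh did not either.

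Ptgds was 2524 ± 252 intensity units at P5, 161 ± 16.4 at P7 in the wild type and 554 ± 55.4 in Runx2+/-. The scaled levels were 5.60, 2.83 and 2.16. The P7 wild-type level was 6.84-fold below the P5 level. The genes nearest to Ptgds in their differences were Aldoc, a glycolytic enzyme rich in astrocytes, at 0.26, Ifitm1 at 0.60 and Bcan at 0.62, with Stmn2 and Tubb3 next at 0.78 and 0.87.

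Sox10 gave 44.4 ± 5.57, 23.5 ± 4.25 and 131 ± 13.6 intensity units, and its scaled levels were -0.23, 0.04 and 0.08. The 3 arrays thus lay within 0.31 log2 units of each other. The age difference of 0.27 was close to the technical SD of 0.25 for a typical probe, and below the 0.37 for the dimmest. In the same scaling that put Stmn2 and Tubb3 4-fold lower at P7, Sox10 was 1.21-fold higher. These genes were not of like brightness. With genes split into equal groups by brightness, Sox10 fell in the dimmest group for age. The median difference of that group was 0.40, with 0.37% of genes at least 2-fold lower and 16.0% higher. Stmn2 and Tubb3 fell in a brighter group, with a median of 0.07, 4.42% lower and 3.98% higher. The Sox10 difference was thus below the median of genes as dim.

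Mbp was measured with 3 probes that do not all read the same transcripts. The brightest lies at base 4653 of NM_001025245 (chr18:82727929-82727988, plus strand), and NM_010777 is not among its accessions in the files. It gave 56.7 ± 6.23, 14.3 ± 3.40 and 130.0 ± 13.3 intensity units, with the P7 wild-type value not well above background and at least 1.74-fold below P5. The probe at base 375 of NM_010777 (chr18:82691469-82691528) gave 25.6, 10.8 and 17.2 intensity units, and the probe at base 916 of NM_010777 gave 16.8, 2.90 and 23.6. Both were below the limit at P7 in the wild type and had no order for age.

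Gfap was seen only at P5 and was dim there. The probe at base 2207 (chr11:102751813-102751872, minus strand) gave 22.6 ± 3.45 intensity units at P5, against 3.30 in wild type and 4.27 in Runx2+/- at P7. The probe at base 2443 gave 16.9, 4.52 and 5.49, and the probe at base 1294 stayed at background in all 3 samples. Because the lowest reliable level was higher on the P7 wild-type array, at -0.78 scaled log2 units, than on the P5 array, at -2.12, Gfap had no order between these ages. Against the Runx2+/- array it was at least 4.12-fold higher at P5.

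**Figure D2:**
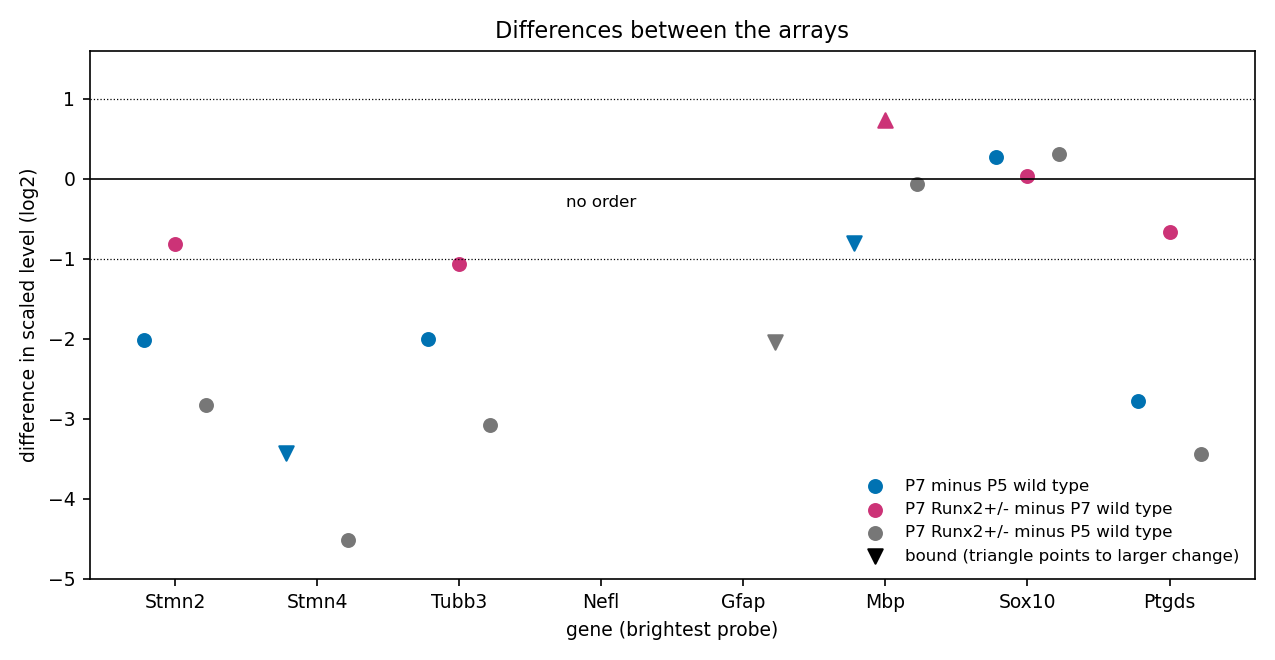
Difference in scaled log2 level between arrays for the brightest probe of each gene, with dotted lines at 2-fold. Circles were measured on both arrays and triangles are bounds that point towards the larger change; Stmn2, Stmn4, Tubb3 and Ptgds lie at -2.01 or below for age, and Sox10 lies between 0.04 and 0.31 in all 3 comparisons.

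The second comparison set Runx2+/- against wild type at P7. The differences of Stmn2, Tubb3, Sox10 and Ptgds were smaller than those between ages, except that with normexp and median scaling those of Stmn2 (-1.24 against -0.90), Tubb3 (-1.34 against -1.04) and Sox10 (-0.78 against 0.47) were larger. Tubb3 was 1.07 log2 units lower on the Runx2+/- array (2.10-fold), Stmn2 was 0.82 lower, Ptgds was 0.67 lower and Sox10 was 0.04 higher. Mbp, above background in Runx2+/- only, was at least 1.67-fold higher with its brightest probe. Of 5 genes with an order, 1 was lower by 2-fold or more and 0 higher by as much, where 13.8% and 5.20% of all ordered genes were. With normexp and the 75th percentile those background shares were 3.95% and 31.6%. The median of the 5 was -0.67, against 0.13 over all ordered genes. Stmn2 and Tubb3 fall in the dimmest of 8 equal groups of genes for this pair of arrays, and in that group the median difference was -0.62 and 36.3% of genes were at least 2-fold lower. The Tubb3 and Stmn2 differences were thus close to those of other genes as dim. Before scaling, both genes were brighter on the Runx2+/- array, by 2.60-fold and 3.09-fold, while the 75th percentile of that array was higher still. Stmn4 had no order, since its Runx2+/- level of -1.69 lay below the limit of the P7 wild-type array.

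The P7 wild-type array enters both of these comparisons, so the Runx2+/- array was also set against P5 wild type, a pair that differs in age and genotype together and leaves out the dimmest array. Stmn4 was 22.8-fold lower on the Runx2+/- array, Ptgds 10.9-fold, Tubb3 8.44-fold and Stmn2 7.11-fold lower. Sox10 was 0.31 log2 units higher and the brightest Mbp probe 0.06 lower. The 3 Mbp probes differed here, at -1.83 for the probe at base 375 of NM_010777, -0.77 at base 916 of NM_010777 and -0.06 at base 4653 of NM_001025245. These positions are on different transcripts and do not give an order along the gene. Of 7 genes with an order, 5 were lower by 2-fold or more and 0 higher by as much, against 15.3% and 8.67% of all ordered genes. The P5 array was therefore the high one for the neuronal genes and Ptgds in both pairs that contain it, which share that array.

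Among stathmins, beta tubulins and intermediate filaments, Stmn3 and Tubb2b were lower at P7 as the members were, and the other relatives with an order lay within 2-fold for age. Stmn1, the stathmin of dividing cells, was 0.74 lower at P7 than at P5 and 0.86 higher in Runx2+/- than in wild type. The neuronal Stmn3 was 143 intensity units at P5 and not well above background on either P7 array, which made it at least 4.69-fold lower at P7 in the wild type and at least 26.0-fold lower in Runx2+/- than at P5. Of 7 measured beta tubulins, Tubb3 and Tubb2b, which is abundant in immature neurons, were 2.01 and 1.98 lower at P7. The other 5 (Tubb2a, Tubb4a, Tubb4b, Tubb5 and Tubb6) lay between -0.40 and -0.19. Tubb2b was 0.99 higher in Runx2+/- than in wild type, the opposite direction to Tubb3. The intermediate filament genes Vim and Nes, used by mesenchymal and progenitor cells, were 0.08 and 0.01 lower at P7. Sox9, the SoxE factor of cartilage, was not well above background at P7 in the wild type. In the prostaglandin D pathway, Ptgs1, a cyclooxygenase upstream of Ptgds, was 0.11 lower at P7 and 0.83 higher in Runx2+/-. The other synthase Hpgds and the receptor Ptgdr were above background on the Runx2+/- array only.

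The wider lists of neural genes were drawn up with earlier results of these data known, and they are described by counts. They include the members, with Stmn2, Stmn4, Tubb3 and Nefl among the axon genes, Sox10 and Mbp among Schwann and oligodendrocyte genes, Gfap among astrocyte genes and Ptgds among meningeal genes. Among neuronal cytoskeleton and axon genes, 14 of 18 were well above background at P5, 7 at P7 in the wild type and 13 in Runx2+/-. For age 13 had an order, of which 7 were measured on both arrays. All 7 lay below their P5 level, with a median of -1.98. The other 6 were above background at P5 and not at P7 in the wild type, so they could be ordered only as lower. Of the 13, 8 were lower by 2-fold or more, bounds included, and the median was -1.98. Mapt (the axonal tau protein) was 4.53-fold lower and Crmp1, which acts in axon guidance, at least 4.10-fold lower, and Gap43, a growth cone protein, was 2.57-fold lower. These genes did not move together in the genotype comparison. Mapt was 2.01 lower in Runx2+/- while Gap43 was 0.82 higher, and the median of 9 was -0.58. Before scaling, both were higher in Runx2+/-, Mapt by 1.35-fold and Gap43 by 9.63-fold. The summed level of the genes above background was 86.8 at P5, 36.2 at P7 in the wild type and 31.4 in Runx2+/-, in multiples of each array's 75th percentile. These sums run over different sets of 14, 7 and 13 genes. Dpysl3, which was within 2-fold for age, was the brightest gene on every array, at scaled log2 levels of 5.11, 4.71 and 4.13.

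Genes of neuronal RNA binding and the synapse were less alike. Of 15 with an order, 4 were lower at P7 by 2-fold or more and 0 higher by as much, and the median was -0.15. The vesicle sensor Syt1 was at least 3.05-fold lower and the RNA-binding protein Elavl3 at least 2.26-fold lower. Scg2, a secretory granule protein, was at least 4.06-fold higher in Runx2+/- than in wild type at P7. In contrast, 3 of 11 ordered genes of this list were lower by 2-fold or more, among them Snap25, a protein of vesicle fusion, by 2.04 log2 units. Snap25 was the brightest gene of the list, at 13888 intensity units at P5, 5662 at P7 in wild type and 7518 in Runx2+/-. Before scaling it was thus 1.33-fold higher in Runx2+/-, and whether its signal came from neurons was not tested. Markers of central neurons were mostly not detected, with 6 of 16 above background on any array. The genes of excitatory and inhibitory transmission Slc17a7, Slc17a6, Gad1 and Gad2 were among those not detected, and the vesicular transporter Slc32a1 was detected at P5 only. Of peripheral neuron genes, 7 of 17 were above background on any array. Th, the rate-limiting enzyme of catecholamine synthesis, was 0.56 higher at P7 than at P5, and its genotype difference was -0.53. The neurotrophin receptors Ntrk2 and Ntrk3 lay within 0.24 in both comparisons, and the neuropeptide genes Calca and Tac1 went opposite ways by genotype after scaling. Calca was at least 4.23-fold higher in Runx2+/- and Tac1 5.65-fold lower. Before scaling, Tac1 was nearly equal on these arrays, at 27.7 intensity units in wild type and 26.8 in Runx2+/-. Tac1 was also at least 5.29-fold higher at P7 than at P5. Sncg, a synuclein of peripheral neurons, was 2.53-fold lower in Runx2+/-, but 2.16-fold higher before scaling.

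Of 9 Schwann cell genes measured at both ages, 8 lay within 2-fold, as Sox10 did, and Gap43, which is also on the axon list, was lower by more. With Mbp, which has only a bound, the median of the 10 ordered genes was 0.17. The peripheral myelin genes Pmp22 and Prx were 0.07 and 0.22 higher at P7, and the neurotrophin receptor gene Ngfr was 0.26 higher. For genotype the Schwann median was 0.38, with S100b 1.35 higher and Dhh, a ligand that Schwann cells send to the nerve sheath, 1.01 lower. The summed level was 37.3, 39.2 and 50.05 in the order P5, P7 wild type and Runx2+/-, over 11, 9 and 12 genes above background. Pmp22 was the brightest of them on every array, at scaled log2 levels of 4.11, 4.18 and 4.58. Of the perineurial genes, the 2 measured at both ages lay within 2-fold. The glucose transporter gene Slc2a1 was at least 1.64-fold lower at P7 and more than 2-fold higher in Runx2+/- than in wild type. Melanocytes also use Sox10, and 4 of 8 melanocyte genes were above background on any array, with Tyr, Tyrp1 and Mlana not detected.

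Brain glia gave a mixed picture. All 12 astrocyte genes were above background on some array, 11 of them at P5, 6 at P7 in the wild type, the dimmest array, and 10 in Runx2+/-. At P5, Gfap, Aqp4 and Slc1a2 were dim, at 22.6, 26.1 and 16.7 intensity units, against 278 for Fabp7 and 257 for Aldoc. Slc4a4 was above background in Runx2+/- only, and S100b is also on the Schwann list. Whether the signal of this list came from astrocytes was not tested. Of 7 with an order for age, 3 were lower at P7 by 2-fold or more, and the median was -0.65. Fabp7, a fatty acid binding protein of radial glia, was 6.31-fold lower and Aldoc 5.89-fold lower. In Runx2+/- Fabp7 was 0.70 higher and Aldoc 0.83 lower than in wild type, and the glutamate transporter Slc1a3 was 2.36 higher. Of 10 ordered oligodendrocyte genes, the 8 measured at both ages lay within 2-fold, and the median of the 10 was 0.11. The other 2, Mbp and Mal, were at least 1.74-fold and at least 1.54-fold lower at P7. Olig2, which specifies that lineage, was not detected, and Olig1 was above background at P5 only. The neural progenitor genes went both ways for age, with Sox1 1.29 higher, Hes5 at least 2.20-fold lower and a median of -0.01 over 5 genes. By genotype 3 of 4 were lower in Runx2+/- by 2-fold or more, with a median of -1.39 and Sox1 8.39-fold lower, and Sox2 and Pax6 were not detected. Microglial genes had an age median of 0.15 over 5 genes.

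The meningeal list as a whole did not share the difference of Ptgds. Of 13 leptomeningeal genes with an order, 3 were lower at P7 by 2-fold or more and 2 higher by as much, and the median was -0.06. Besides Ptgds, these were Slc6a13, a GABA transporter, at least 3.07-fold lower and Crabp2, a retinoic acid binding protein, 2.22-fold lower, against Foxd1 at 1.28 higher and Zic1 just past 2-fold higher. Of the other transporter genes, Slc22a6 was at least 1.46-fold and Slc13a4 1.42-fold lower at P7, and Slc47a1 was not detected. Aldh1a2, the retinoic acid synthesis enzyme of the meninges, was 0.19 higher. For genotype 4 of 11 were at least 2-fold higher and none lower, with a median of 0.63. Ccn3 was at least 3.06-fold higher, Igfbp2 was 1.41 higher and Cldn11, a tight junction protein of the arachnoid, 1.18 higher. Ptgds was 0.67 lower, but 0.37 higher with normexp and the 75th percentile. Slc6a13 was 11.0-fold lower in Runx2+/- than at P5, close to the 10.9-fold of Ptgds. In that pair Slc22a6 was at least 8.11-fold and Slc13a4 1.57-fold lower. Of the 13 ordered meningeal genes there, 3 were lower by 2-fold or more and 5 higher by as much. Of 8 choroid plexus genes, 5 were above background on some array, 2 of them (Ptgds and Aqp1) on all 3. Ttr, the abundant thyroid hormone carrier of that tissue, was above background at P7 in the wild type only, at 47.1 intensity units, and was not well above background on the P5 array, where Ptgds was highest.

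**Figure D3:**
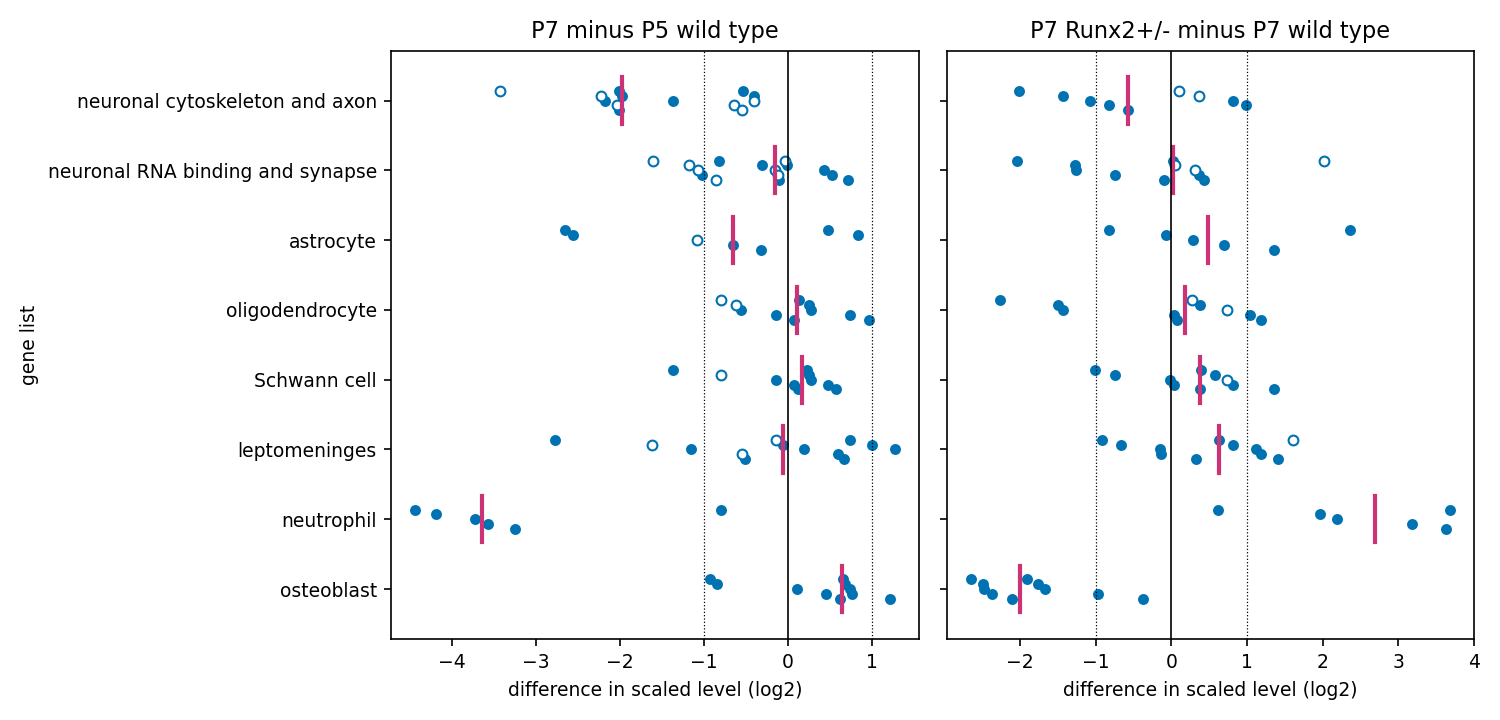
Differences in scaled log2 level for genes of 8 lists, at left P7 minus P5 wild type and at right P7 Runx2+/- minus P7 wild type. Each point is a gene with an order (open for a bound), the bar is the list's median and dotted lines mark 2-fold; the axon list centres on -1.98 for age and the Schwann list on 0.17, while the neutrophil list centres on -3.64.

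Markers of other tissues also differed between the same arrays. Of 6 neutrophil genes, 5 were lower at P7 than at P5 by 2-fold or more (median -3.64) and 5 were higher in Runx2+/- than in wild type by as much (median 2.69). Their summed level was 825 at P5, 69.2 at P7 in wild type and 328 in Runx2+/-. Between Runx2+/- and P5 the neutrophil median was -0.90, while Stmn2, Stmn4 and Tubb3 lay at -2.83 or below. Osteoblast genes were higher at P7 (median 0.64, 1 of 10 at least 2-fold) and lower in Runx2+/- (median -2.01, 8 of 10 at least 2-fold). Of 3 measured skeletal muscle genes, 1 (Tnnt3) was lower at P7 by 2-fold or more. The part of these tissues in the neural differences was not tested. In bulk RNA, fewer cells of a type and less RNA per cell cannot be told apart, and for dissected tissue a different amount of neighbouring tissue cannot be told apart from either.

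RefSeq promoters (GRCm38.p6) were at hand for 3 of the 8 genes. The 250 bases before the gene start are shown for Tubb3 and Ptgds, which were both lower at P7, to compare the sequence in front of a neuronal and a meningeal gene of like difference. In Tubb3 (chr8:123411303-123411552, plus strand) the capitals mark the longest repeated run, which a script found. In Ptgds (chr2:25469750-25469999, minus strand) they mark E-boxes, CANNTG, the core bound by bHLH proteins.
Tubb3: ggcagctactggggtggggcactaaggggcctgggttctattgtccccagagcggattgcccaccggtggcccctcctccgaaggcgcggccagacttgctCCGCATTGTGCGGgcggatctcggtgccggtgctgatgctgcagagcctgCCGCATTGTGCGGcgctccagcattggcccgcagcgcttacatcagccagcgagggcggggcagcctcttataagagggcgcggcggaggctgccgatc
Ptgds: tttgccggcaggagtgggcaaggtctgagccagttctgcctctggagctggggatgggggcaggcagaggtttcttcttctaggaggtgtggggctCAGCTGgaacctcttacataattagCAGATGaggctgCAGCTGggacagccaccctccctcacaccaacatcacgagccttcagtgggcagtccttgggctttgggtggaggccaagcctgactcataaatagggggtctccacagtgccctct
The Tubb3 stretch holds CCGCATTGTGCGG 2 times, and of 27025 promoters of this length 2 hold it on either strand and 1 holds it at least 2 times. Ptgds has 3 E-boxes, a number reached by 12.1% of the promoters, and Tubb3 has 0. The motif reads the same on both strands. These letters describe the windows only.

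The direction of the age differences of Stmn2, Stmn4, Tubb3, Ptgds and Sox10 was the same under all 9 other ways of processing that gave them a value, and genotype differences were less firm. Ptgds lay between -3.16 and -2.58 for age, and Tubb3 between -2.23 and -1.04. Stmn4 lay between -3.76 and -1.73, so its lower bound shrank to 1.73 log2 units with normexp and median scaling. Stmn2 lay between -2.22 and -0.90, the last after normexp background correction with median scaling, which took it within 2-fold. Sox10 lay between 0.18 and 0.47 for age. For genotype Tubb3 stayed lower, between -1.34 and -0.63, and Stmn2 between -1.24 and -0.52. Ptgds ran from -0.77 to 0.37, the positive value after normexp with the 75th percentile, which moved the median of all genes to 0.62. Sox10 ran from -0.78 to 0.04.

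**Figure D4:**
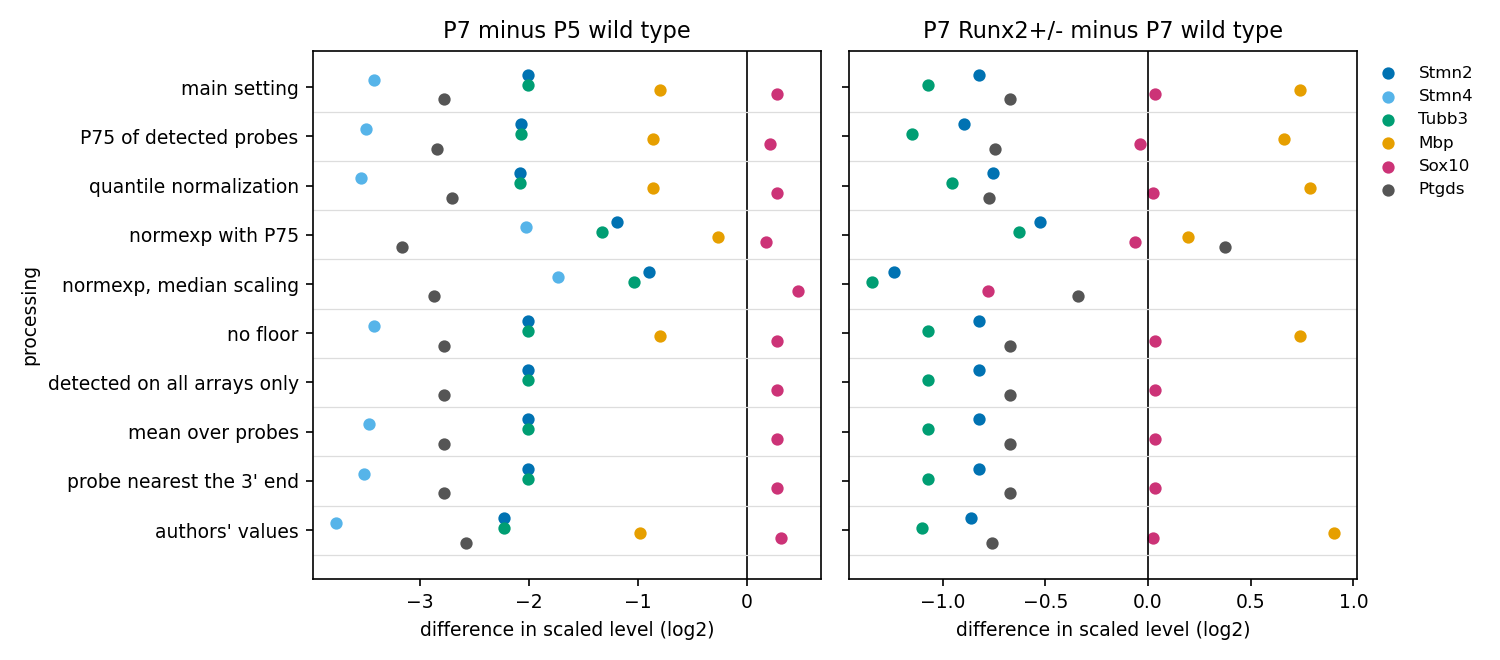
Differences in scaled log2 level for the 6 genes with an order, under each way of processing, at left P7 minus P5 wild type and at right P7 Runx2+/- minus P7 wild type. Each point is 1 gene, and a missing point means no order; for age the Stmn2, Stmn4, Tubb3 and Ptgds points all lie below 0, and for genotype the Ptgds and Sox10 points fall on both sides of it.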

How the data were processed

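Suture RNA was amplified and labelled with Cy3, per the labels' protocols. The authors deposited intensity values from Feature Extraction (the file headers give 10.7.1.1, the submitters' processing notes 9.5.1.1). The software had removed background and spatial trend, as the headers record. The authors' own value table, with steps not stated in the sources, served as an alternative. Control spots and outliers were dropped, spots of a probe were averaged on the log2 scale, and the 75th percentile of each array was subtracted. A probe not well above background was raised to the array's lowest value above background where it lay under it (-2.12, -0.78 and -3.25). The brightest probe stood for a gene, and differences of at least 2-fold were counted. Probes were named by RefSeq accession where matched (27234 probes). The 8 members and the 21 other lists were chosen with earlier results of these data known. The genes named are the members, their families, up to 4 genes of each list that passed 2-fold, and the 5 genes nearest in pattern; others were named after their values were seen. Steps were tested on simulated arrays. R 4.3.3, limma 3.58.1 (normexp, offset 50) and Python 3.11.15 were used.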

Additional observations from a re-analysis of the deposited data

How the results depend on the processing

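Precision is limited by 1 array per group and by signal over background, above all on the P7 wild-type array. The count of 4 genes at least 2-fold lower at P7 stayed between 3 and 5, and no member turned to 2-fold higher for age under any alternative. The share of all ordered genes that were lower for age ran from 0.858% at 3-fold to 11.4% at 1.5-fold. The median age difference of -2.01 became -1.26 with normexp and the 75th percentile and -1.04 with normexp and median scaling. For genotype, the count of 1 gene at least 2-fold lower became 0 with quantile normalization, 0 with normexp and the 75th percentile, 2 with normexp and median scaling, 4 without the floor, 3 at 1.5-fold and 0 at 3-fold, and the count of 0 higher became 1 at 1.5-fold. The median genotype difference of -0.67 became -0.065 and -1.01 with the normexp settings and -0.95 without the floor. The floor alternative includes genes not above background. Over all genes, normexp with the 75th percentile gave 936 lower and 32 higher for age, against 472 and 910, and 542 lower and 4338 higher for genotype, against 1988 and 751. With median scaling the age counts were 284 and 157. Without the floor they were 1521 and 14167, and for genotype 16759 and 1801, of 35019 genes. The median of all genes then moved to 0.56 and -0.85. Of 463 further values for single genes, 355 moved by less than the technical SD, 108 moved more, and 0 genes at least 2-fold apart changed sign. The cause of these shifts was not tested. No paired analysis was possible because each group has 1 array.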
